A study of Mus musculus with 2 samples.

Results

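The insulin-like growth factor (IGF) genes of the E11 mouse aorta-gonad-mesonephros (AGM) are described here: the ligand Igf1, its receptor Igf1r, the binding protein genes Igfbp2, Igfbp3, Igfbp4, Igfbp5 and Igfbp7, and the RNA-binding protein genes Igf2bp1, Igf2bp2 and Igf2bp3. They were chosen by name, 10 of the 31053 genes counted, and all 10 had UMIs (unique molecular identifiers, 1 per captured mRNA molecule) in each library. Igf1 is a secreted growth factor that binds the receptor tyrosine kinase Igf1r and signals through PI3K and Akt. Secreted IGF binding proteins hold the ligand outside the cell, limit or prolong its action, and release it when proteases cut them. Igfbp7 binds IGF weakly and is known as a secreted matrix protein of vessels. The Igf2bp genes carry a similar name but encode cytoplasmic proteins that bind mRNAs, Igf2 mRNA among them, and are typical of embryonic cells.

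The study dissected the AGM, the region around the dorsal aorta where hematopoietic stem cells arise, and made 1 droplet 3′ single-cell library from PDGFRB +/+ embryos (WT) and 1 from PDGFRB -/- embryos (KO). Both were on a C57BL/6J background at embryonic day 11, dissociated with collagenase and otherwise untreated. The whole KO embryo carries the genotype, so it is not limited to mesenchyme. How many embryos went into a library was not given in the sources used here. With 1 library per genotype there was no replicate check and no test was made. Intervals in parentheses are 95% intervals of counting error alone, exact Poisson for levels, exact conditional for ratios and exact binomial for shares, and genotype, sex and batch cannot be told apart.

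Barcodes with at least 2000 UMIs and under 10% mitochondrial UMIs were taken as cells, 8253 in WT (median 13321 UMIs) and 8165 in KO (median 12391). Pdgfrb stood at 43.1 CPM (42.1 to 44.2; CPM is UMIs per 1000000 UMIs) in WT and at 7.09 CPM (6.66 to 7.55) in KO, where 801 cells still held a UMI of it. The female marker Xist stood at 793 and 0.415 CPM and the Y-linked genes at 0.0266 and 163 CPM, so the libraries also differed in sex. In all, 20 barcodes were cells in each library. Cells were sorted into classes by marker genes, with no member among the markers, such as Cdh5 and Pecam1 for endothelial cells, Csf1r and C1qb for macrophages, Sox10 and Erbb3 for neural crest, Acta2, Tagln and Myh11 for smooth muscle, and Tcf21, Foxf1, Wnt2 and Hand1 for the class named Tcf21 Foxf1. Marker genes held out from the sorting were highest in their own class, in each library, for erythroid, macrophage, endothelial, neural crest, neuronal, myogenic and sclerotome cells. In smooth muscle Lmod1 was, but Smtn, at 31.1 and 30.4 CPM, was higher in endothelial cells (41.5 and 49.1 CPM), and Synpo2 was also higher in another class. In the Tcf21 Foxf1 class Hand2 and Gata6 were higher in neuronal and coelomic cells, in the nephrogenic class Pax8 was higher in coelomic cells, and in coelomic cells Gata4 was highest while Msln and Lgals2 were at or near 0. For the mesenchyme gate, Col5a1 and Lum were highest in a mesenchyme class. Postn was higher in neural crest (371 and 357 CPM) than in the mesenchyme classes summed (111 and 46.3 CPM). The 12 classes with at least 50 cells in each library were compared and ranked, which leaves out the epithelial (22 and 23 cells) and gastro-splenic classes, while 1416 WT and 1484 KO cells stayed unassigned and 125 and 99 passed the markers of more than 1 class. The mesenchyme classes summed, called mesenchyme below, held 5039 WT cells and 5342 KO cells. KO held fewer erythroid (742 and 224), Tcf21 Foxf1 (888 and 512) and gastro-splenic cells (84 and 1), and more sclerotome (1064 and 1636) and myogenic cells (165 and 370).

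On GRCm38 (GENCODE M21), Igf1 lies at chr10:87858265-87937042 on the plus strand and Igf1r at chr7:67952827-68233668, also plus. Igfbp2 (chr1:72824503-72852474, plus) and Igfbp5 (chr1:72857932-72874884, minus) face each other tail to tail with 5457 bases between them. Igfbp3 (chr11:7206086-7213923, minus) lies 3539 bases from Igfbp1, and Igfbp4 (chr11:99041244-99054392, plus) lies elsewhere on the same chromosome. Igfbp7 (chr5:77349240-77408041, minus), Igf2bp1 (chr11:95957163-96005940, minus), Igf2bp2 (chr16:22059009-22163299, minus) and Igf2bp3 (chr6:49085223-49214957, minus) complete the list. The library chemistry reads 3′ ends, so the counts do not separate isoforms. On the opposite strand, with UMIs counted over barcodes with at least 2000 UMIs, Igf1 overlaps Igf1os (30 UMIs in WT, 17 in KO), Igfbp7 overlaps Polr2b (8887 and 9359), Igf2bp1 overlaps Gm29202 (181 and 235) and Igf2bp3 overlaps Malsu1 (7470 and 7916).

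The 150 bases before the RefSeq start on GRCm38.p6 are shown for the 4 binding protein genes with 1 clear start and for Igf2bp2, because the binding protein genes differ among themselves in their core promoter letters. Each runs 5′ to 3′ in the direction of the gene. Capitals mark matches to the TATA box TATAAA, to its variant TATATA, to its variant TATTTA, or to the GC box GGGCGG, each searched on both strands and chosen after the sequences had been seen. RefSeq promoters were found for 9 of the 10 members, the other being Igf2bp1. The RefSeq starts of Igf1 and Igf1r lie 2846 bases inside and 570 bases before the annotated gene, Igfbp2 has 2 of them, and their windows are not shown. The window of Igf2bp3 is not shown either. It held no match to any of these motifs and had a GC content of 51.3%.
Igfbp3: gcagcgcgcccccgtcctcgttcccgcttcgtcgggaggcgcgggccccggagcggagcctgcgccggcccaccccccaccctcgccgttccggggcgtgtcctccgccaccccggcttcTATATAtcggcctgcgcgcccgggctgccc
Igfbp4: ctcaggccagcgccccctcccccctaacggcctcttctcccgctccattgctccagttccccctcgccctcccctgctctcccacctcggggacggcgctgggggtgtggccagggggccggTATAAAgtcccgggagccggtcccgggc
Igfbp5: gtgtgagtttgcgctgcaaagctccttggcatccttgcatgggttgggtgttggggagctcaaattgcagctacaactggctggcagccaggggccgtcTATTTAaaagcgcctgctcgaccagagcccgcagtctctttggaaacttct
Igfbp7: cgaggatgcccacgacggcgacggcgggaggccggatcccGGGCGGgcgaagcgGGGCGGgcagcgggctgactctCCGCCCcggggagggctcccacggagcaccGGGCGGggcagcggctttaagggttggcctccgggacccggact
Igf2bp2: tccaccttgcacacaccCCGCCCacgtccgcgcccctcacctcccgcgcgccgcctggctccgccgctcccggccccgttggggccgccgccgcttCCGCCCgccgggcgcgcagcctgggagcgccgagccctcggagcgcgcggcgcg
The windows are chr11:7213924-7214073 (minus) for Igfbp3, chr11:99041094-99041243 (plus) for Igfbp4, chr1:72874866-72875015 (minus) for Igfbp5, chr5:77408046-77408195 (minus) for Igfbp7 and chr16:22163300-22163449 (minus) for Igf2bp2. Igfbp3 held TATATA beginning 30 bases before the start, Igfbp4 held TATAAA beginning 28 bases before it, and Igfbp5 held TATTTA beginning 51 bases before its RefSeq start, whereas its GENCODE start lies 19 bases further upstream. None of these 3 windows held GGGCGG. Igfbp7 held no TATA-type match and 4 matches to GGGCGG, and Igf2bp2 held none and 2. Over the 32851 RefSeq promoters of the same length, 14.6% held at least 1 of the TATA-type motifs and 28.6% held GGGCGG. The GC content was 78.7% for Igfbp3, 73.3% for Igfbp4, 55.3% for Igfbp5, 78% for Igfbp7 and 83.3% for Igf2bp2, with a median of 54% over all promoters. A match describes letters and is not a shown binding site.

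Igf1, the ligand, was at like levels in several unrelated classes. WT endothelial cells held 126 CPM (115 to 137), other mesenchyme 125 CPM (122 to 129), Tcf21 Foxf1 cells 123 CPM (118 to 128) and macrophages 117 CPM (107 to 128), and these intervals overlapped. It was lower in WT smooth muscle at 66.2 CPM (62.0 to 70.7), in myogenic cells at 43.7 CPM (38.1 to 49.9) and in neural crest at 32.9 CPM (27.1 to 39.6). Of the 11 pairs of neighbouring classes in the WT order, 8 had overlapping intervals. In KO, macrophages held 165 CPM (151 to 180.2), other mesenchyme 146 CPM (142 to 149), smooth muscle 145 CPM (138 to 152), endothelial cells 122 CPM (112 to 132) and Tcf21 Foxf1 cells 93.7 CPM (88.3 to 99.4). The KO level in neuronal cells, 159 CPM, came from few cells, as 63.4% of its UMIs were in 1 cell, and 46.7% of those in KO neural crest (69.4 CPM) were in 1 cell. Without cells that also passed the mesenchyme gate, the WT and KO levels of Igf1 were 5.96 and 5.81 CPM in the neuronal class. They were then 6.97 and 10.5 CPM in neural crest and 0.967 and 2.12 CPM in myogenic cells, whereas macrophages kept 118 and 161 CPM.

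Igf1r, the receptor, was highest in smooth muscle in each library, at 139.9 CPM (134 to 146) in WT against 132 CPM (126 to 139) in KO, next to myogenic cells at 136 CPM (126 to 147) and 123 CPM (116 to 130.1). The 23 KO epithelial cells, which were not ranked, held it at 154 CPM (125 to 187). Macrophages were lowest outside erythroid cells, with 44.9 CPM (38.8 to 51.7) for WT against 42.6 CPM (35.7 to 50.5) for KO. Macrophages with all their cells counted therefore held Igf1 at 107% of its WT mesenchyme level but Igf1r at 41.0%. Once cells that passed the mesenchyme gate were left out, macrophage Igf1r fell to 16.1 CPM (WT) and 22.9 CPM (KO). The 41.0% thus rested in large part on cells that also carried mesenchyme genes. With all cells of each class counted, the WT levels of Igf1r spanned 3.12-fold over the 11 classes outside erythroid cells, and those of Igf1 spanned 3.83-fold.

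**Figure D1:**
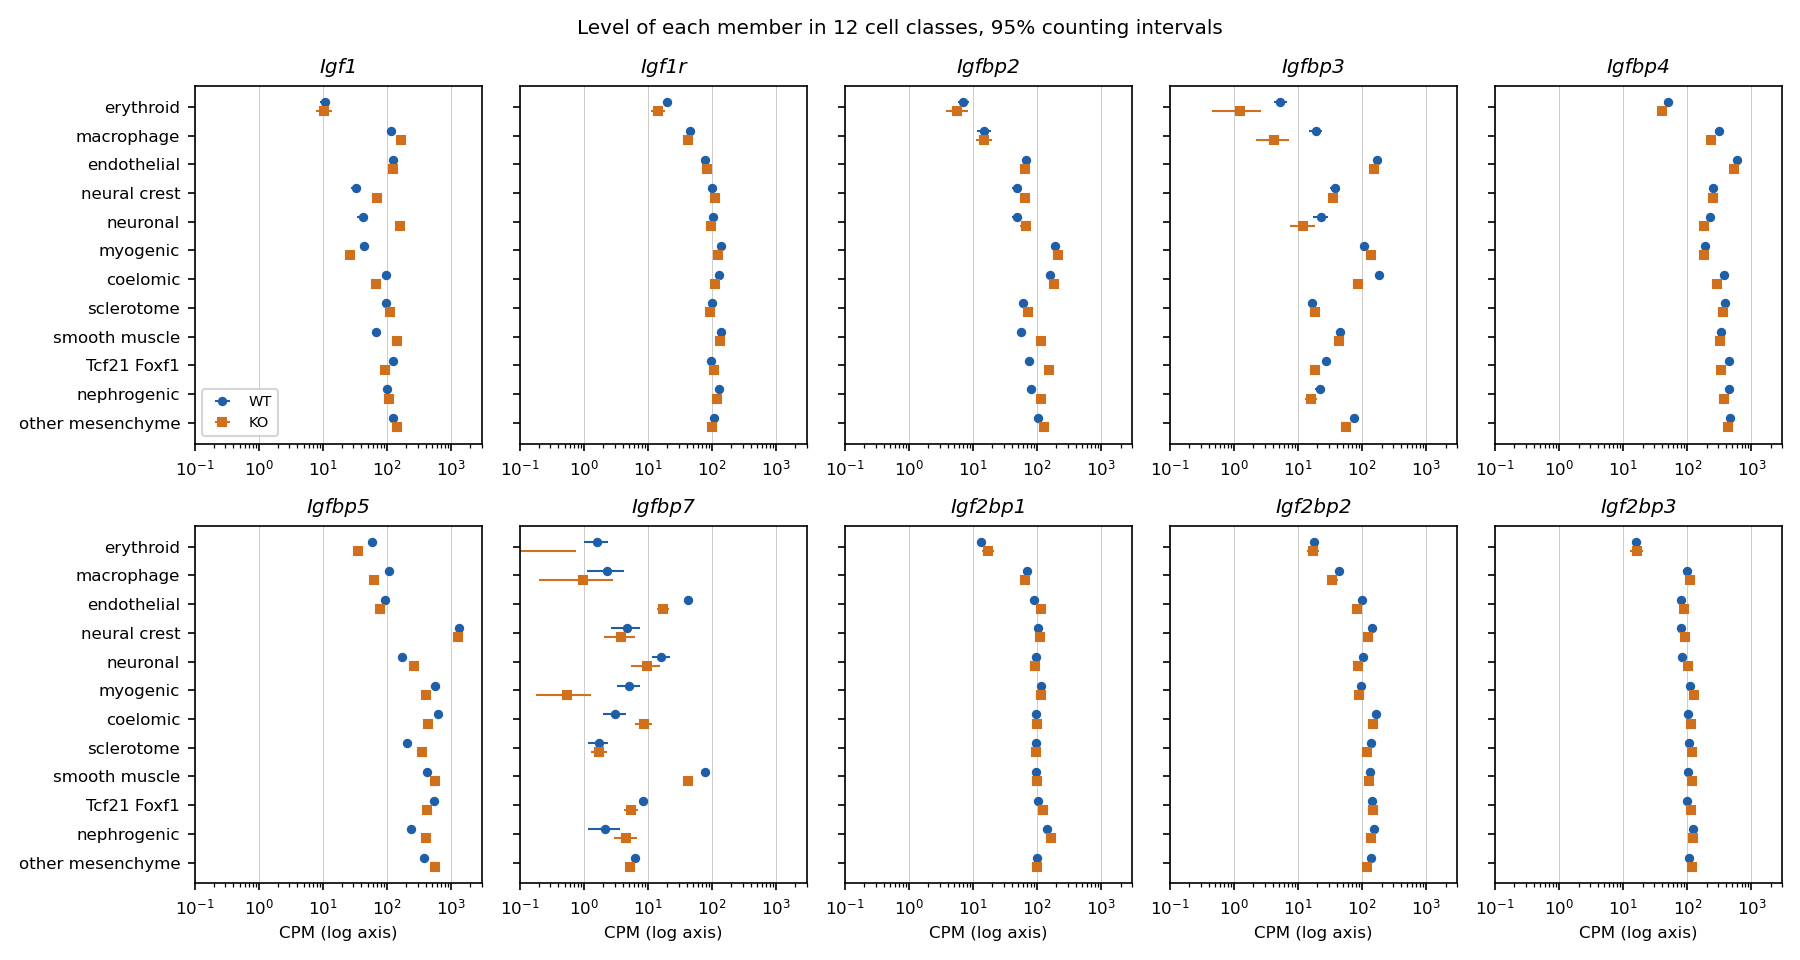
Level of each of the 10 members in 12 cell classes, in CPM on a log axis, with WT as blue circles, KO as orange squares and bars for 95% counting intervals. Igfbp5 peaks in neural crest (1323 and 1273 CPM) and Igfbp7 in smooth muscle (76.2 and 41.8 CPM), while Igf2bp1 and Igf2bp3 have the narrowest spans outside erythroid cells. The KO erythroid point of Igfbp7 is at 0 and is not drawn.

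Igfbp2 was highest, among the 12 classes, in myogenic cells, at 191 CPM (179 to 204) in WT against 211 CPM (201 to 220.4) in KO, and next in coelomic cells, at 161 CPM (152 to 169) against 184 CPM (172 to 197). The 22 WT and 23 KO epithelial cells held more, 398 CPM (361 to 438) and 587 CPM (529 to 649). It was lowest outside erythroid cells in macrophages, at 14.8 and 15.1 CPM. KO exceeded WT in each of the 5 mesenchyme classes compared. Smooth muscle went from 56.1 CPM (52.2 to 60.3) in WT to 113 CPM (108 to 119.6) in KO and Tcf21 Foxf1 cells from 75.4 CPM (71.4 to 79.5) to 152 CPM (145 to 159). Nephrogenic cells went from 79.1 CPM (72.2 to 86.6) to 116 CPM (107 to 125), sclerotome from 59.8 CPM (56.4 to 63.5) to 72.9 CPM (69.8 to 76.1), and other mesenchyme from 105 CPM (101 to 108) to 128 CPM (125 to 132). Neural crest held 48.2 CPM in WT and 65.4 CPM in KO, and endothelial cells 66.4 and 63.8 CPM. With all cells counted, the interval of the log2 ratio lay above 0 in 9 of the 12 classes, a count not made for all genes. With cells passing the mesenchyme gate left out, the ratio was -0.52 in neural crest, -0.47 in neuronal cells, -0.32 in endothelial cells and -0.07 in myogenic cells. It was 0.69 in coelomic cells, on 26 WT and 15 KO cells, and macrophages then held 0.731 and 3.09 CPM. In neural crest, neuronal and myogenic cells the higher KO level thus rested on cells that also carried mesenchyme genes.

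Igfbp3, the main carrier of circulating IGF in the adult, was high in coelomic cells, at 181 CPM (172 to 191) in WT against 84.9 CPM (76.9 to 93.6) in KO, and in endothelial cells, at 167 CPM (155 to 180.1) against 154 CPM (143 to 166). Myogenic cells followed at 108 and 138 CPM, and sclerotome was low at 16.7 and 18.1 CPM. The level in WT macrophages, 18.7 CPM, had 85.2% of its UMIs in 1 cell. Coelomic cells also carried mesenchyme genes, as 180 of the 206 WT and 105 of the 120 KO cells passed the mesenchyme gate, with 9 mesenchyme genes at a median of 99.6% and 80.9% of their mesenchyme level, and in the remaining 26 WT and 15 KO cells Igfbp3 was at 42.5 and 43.6 CPM.

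Igfbp4 was highest in endothelial cells, at 598 CPM (575 to 621) in WT against 539 CPM (519 to 560.3) in KO, and next in other mesenchyme, at 465 CPM (458 to 472) against 430.3 CPM (424 to 437). Its low end in WT outside erythroid cells was in myogenic cells at 189 CPM, the class that led for Igfbp2. Endothelial cells carried 9 mesenchyme marker genes at a median of 29.0% of their mesenchyme level in WT and 17.9% in KO. Igfbp3 was at 362% and 430.0% of its own and Igfbp7 at 270.2% and 198%. The mesenchyme level of Igfbp7 averages smooth muscle with classes low in it, so these percentages cannot show how much was carried from smooth muscle cells. Without endothelial cells that passed the mesenchyme gate, Igfbp4 stood at 707 and 551 CPM and Igfbp3 at 236 and 173 CPM. The same step took Igfbp5 in endothelial cells from 94.3 and 77.6 CPM to 14.1 and 8.22 CPM.

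Igfbp5 had a marked peak in the neural crest class, the Sox10 expressing glial precursors, at 1323 CPM (1285 to 1362) in WT against 1273 CPM (1237 to 1309.6) in KO. The next WT classes were coelomic cells at 615 CPM (598 to 632), myogenic cells at 568 CPM (547 to 589) and Tcf21 Foxf1 cells at 543 CPM (532 to 554). Outside erythroid cells, endothelial cells were lowest in WT (94.3 CPM) and macrophages in KO (63.7 CPM). Only 2 of its 11 pairs of neighbouring WT classes overlapped, the fewest among the members. Without cells passing the mesenchyme gate, neural crest held 1947 and 1551 CPM, a log2 ratio of -0.33. WT macrophages, at 5.85 CPM, were then below WT endothelial cells at 14.1 CPM. KO exceeded WT in sclerotome, from 202 CPM (196 to 209) to 347 CPM (339.9 to 354), in other mesenchyme, from 381 CPM (374 to 387) to 571 CPM (564 to 579), in nephrogenic cells, from 239 CPM (227 to 251) to 399.8 CPM (384 to 417), and in smooth muscle, from 417 CPM (406 to 428) to 571 CPM (558 to 585). It was below WT in Tcf21 Foxf1 cells at 418 CPM (406 to 430.0), in coelomic cells at 441 CPM (422 to 460.2) and in myogenic cells at 402 CPM (389 to 415). Igfbp2 and Igfbp5, the convergent neighbours, thus differed in sign between genotypes in these 3 classes with all their cells counted. Without cells passing the mesenchyme gate, both were higher in KO coelomic cells, by 1.09 for Igfbp5 and 0.69 for Igfbp2. That rested on 26 WT and 15 KO cells. In myogenic cells both were then lower in KO, at -0.43 for Igfbp5 and -0.07 for Igfbp2. Over the alternatives the log2 ratio of Igfbp5 was 0.53 to 1.02 in sclerotome and 0.38 to 0.71 in other mesenchyme.

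With all cells of each class counted, Igfbp7 had the widest span of the members, 45.0-fold over the WT classes outside erythroid cells. Smooth muscle held 76.2 CPM (71.6 to 81.0) in WT against 41.8 CPM (38.3 to 45.7) in KO, and endothelial cells 41.8 CPM (35.9 to 48.4) against 17.3 CPM (13.8 to 21.5). All other classes were at 16.1 CPM or below in WT, with sclerotome at 1.69 CPM (1.15 to 2.40). Smooth muscle, 467 of the 5039 mesenchyme cells in WT, held 1033 of the 1455 Igfbp7 UMIs of the mesenchyme, and in KO 505 of 840. The endothelial level rested on 178 UMIs in WT and 84 in KO, and 26.4% of the WT UMIs were in 1 cell. Without cells passing the mesenchyme gate, Igfbp7 no longer had the widest WT span, as macrophages held it at 0.365 CPM. Igfbp5 then ran from 1947 CPM in WT neural crest to 5.85 CPM in WT macrophages. Igfbp2 ran from 227 CPM in WT myogenic cells to 0.731 CPM in WT macrophages.

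Among the Igf2bp genes, Igf2bp1 and Igf2bp3 had the narrowest spans over classes of all 10 members, with all cells of each class counted. Igf2bp1 was highest in nephrogenic cells, at 142 CPM (133 to 152) in WT against 162 CPM (152 to 173) in KO, and spanned 2.03-fold over the WT classes outside erythroid cells. Igf2bp3 spanned 1.54-fold, from 121 CPM in nephrogenic cells to 78.4 CPM in endothelial cells, and 10 of its 11 neighbouring pairs overlapped in each library. Igf2bp2, also with all cells counted, spanned 3.74-fold, a span set by macrophages at 43.5 CPM (37.5 to 50.2). Its other WT classes outside erythroid cells lay between 95.9 CPM (myogenic cells) and 163 CPM (coelomic cells). Once cells that passed the mesenchyme gate were left out, Igf2bp2 fell to 12.1 CPM in WT macrophages and 56.1 CPM in WT myogenic cells. The 43.5 CPM thus rested in large part on cells that also carried mesenchyme genes. With all their cells counted, WT macrophages held Igf2bp3 at 97.8 CPM (88.7 to 108), close to mesenchyme at 105 CPM (103 to 107). They kept 89.5 CPM of Igf2bp3 without cells that passed the mesenchyme gate.

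In WT erythroid cells all 10 members were low, at 8.76 to 18.4% of their mesenchyme level, and the 9 mesenchyme marker genes stood at 9.40 to 13.2% of theirs in the same cells. The erythroid values of the members were thus near those of genes that erythroid cells should lack. The same 9 genes stood at 14.6 to 29.0% in WT macrophages, where Igfbp2 was at 18.4%. The leading class was the same in WT and KO for 6 of the 10 members (Igf1r, Igfbp2, Igfbp4, Igfbp5, Igfbp7 and Igf2bp1), and for 57.8% of all genes with at least 100 UMIs in each library. Over the 8 alternatives the number of members was 5 to 7.

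Between genotypes, no member differed by 2-fold or more when all cells, all mesenchyme, or classes in a fixed mix were compared. The call was an absolute log2 ratio of at least 1, with no test behind it. In all cells 0 of 10 members passed, where the share over all genes with at least 10 UMIs was 9.23%. In mesenchyme 0 of 10 passed, against 8.15% of all genes, or 3.17% of genes with at least 100 UMIs, a floor that every member met. With the class shares of the libraries set to 1 mix, 0 of 10 passed, against 6.91%. The median log2 ratio of the members was 0.08 in all cells, -0.02 in mesenchyme and 0.01 in the fixed mix, and that of all genes 0.06, 0.02 and 0.03.

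In mesenchyme, the member farthest from equal was Igfbp7, which went from 15.5 CPM (14.7 to 16.3) in WT to 8.76 CPM (8.18 to 9.37) for the KO library, at a log2 ratio of -0.82 (-0.94 to -0.70). It was -0.78 in all cells and -0.70 in the fixed mix, but 0.22 with Pdgfrb positive cells left out of each library. That step removed 2444 WT but 729 KO mesenchyme cells, so here and below it compares unlike cells. Igfbp2 was higher in KO by 0.48 (0.43 to 0.52), from 80.5 CPM (78.7 to 82.4) to 112 CPM (109.9 to 114). Igfbp5 was higher by 0.32 (0.30 to 0.34), from 381 CPM (378 to 385) to 476 CPM (471 to 480.0), a value between 0.11 and 0.59 over the alternatives. Igf1 was higher by 0.21 (0.17 to 0.25), from 109.5 CPM (107 to 112) to 127 CPM (124 to 129), but by 0.02 in cells under 5% mitochondrial UMIs, and Igf2bp3 was higher by 0.18 (0.14 to 0.22), from 105 to 119 CPM. Igfbp3 was lower at -0.36 (-0.43 to -0.30), from 46.2 CPM (44.8 to 47.6) to 35.9 CPM (34.7 to 37.1), but at 0.39 in cells under 5% mitochondrial UMIs. The remaining log2 ratios were -0.15 for Igfbp4, -0.14 for Igf2bp2, -0.07 for Igf1r and 0.03 for Igf2bp1. For Igfbp4 the interval by class, all cells counted, lay below 0 in 9 of the 12 classes, a count not made for all genes. Its lowest ratio was -0.42 in macrophages. In summed UMIs, fewer cells of a kind and less mRNA per cell cannot be told apart.

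**Figure D2:**
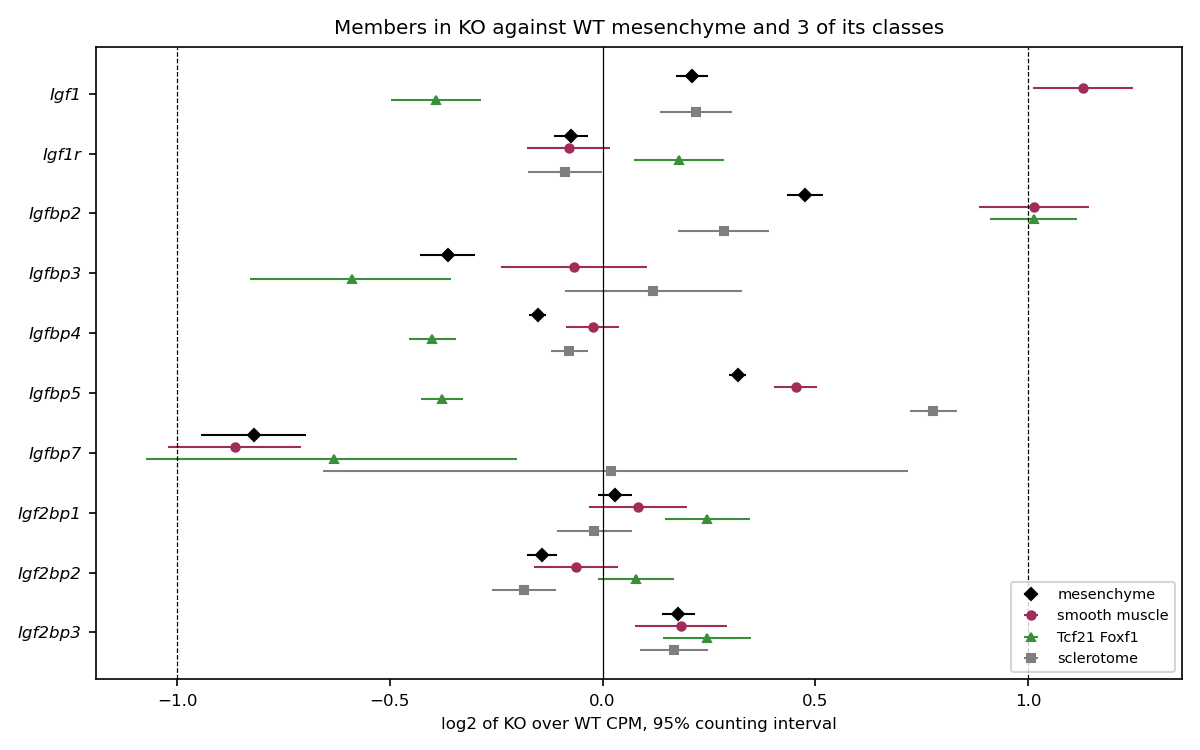
Log2 ratio of KO over WT CPM for the 10 members in all mesenchyme and in 3 of its classes, with 95% counting intervals and dashed lines at a 2-fold difference. Igf1 and Igfbp2 pass the dashed line in smooth muscle (1.13 and 1.01), Igfbp2 also in Tcf21 Foxf1 cells (1.01), and Igfbp7 lies lowest in mesenchyme (-0.82).

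By class, few members passed 2-fold and several of these turned on how cells were sorted. Smooth muscle had 2 of 10, against 2.11% of all genes with at least 100 UMIs, namely Igf1 at a log2 ratio of 1.13 (1.01 to 1.25) and Igfbp2 at 1.01 (0.89 to 1.14). For Igf1 the value was 0.17 with classes read on cells thinned to 5000 UMIs, at 47.4 CPM in 221 WT cells and 53.3 CPM in 140 KO cells. It was 0.84 without cells over 60000 UMIs and 0.93 as a mean over cells, and the 10 cells richest in Igf1 held 35.2% of its smooth muscle UMIs in WT and 43.0% in KO. For Igfbp2 these 3 settings gave 1.14, 1.12 and 1.15, and the call was lost at under 5% mitochondrial UMIs (0.76) and with Pdgfrb positive cells left out of each library (0.89). The last setting left 96 of 467 WT and 238 of 353 KO smooth muscle cells. The share of smooth muscle cells with the mRNA, each cell thinned to 2000 UMIs, was 11.3% and 15.0% for Igf1 and 9.42% and 19.5% for Igfbp2. In erythroid cells none of these 4 shares was above 0.809%.

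Tcf21 Foxf1 cells had 1 of 10 past 2-fold, Igfbp2 at 1.01 (0.91 to 1.12), against 4.32% of genes. The value was 0.91 at under 5% mitochondrial UMIs and 0.67 with Pdgfrb positive cells left out of each library. Sclerotome had 0 of the 9 members with at least 100 UMIs, against 2.04%, and other mesenchyme 0 of 10, also against 2.04%. In coelomic cells 1 of 9 such members passed, Igfbp3 at -1.10 (-1.26 to -0.94), against 1.93% of genes. This was -0.82 with 1 marker more needed per class and -0.86 with Pdgfrb positive cells left out of each library, and without cells passing the mesenchyme gate the levels were 42.5 and 43.6 CPM. In the same class Igfbp7 had a log2 ratio of 1.50 on only 25 and 41 UMIs. In endothelial cells 1 of 10 passed, against 2.24%, Igfbp7 at -1.27 (-1.66 to -0.89). This was -0.97 without the richest cell of each library, -0.27 as a mean over cells and -0.11 with thinned sorting. With Pdgfrb positive cells left out of each library it was -0.63. Igf1 passed in neural crest (1 of 9, against 1.43% of genes) at 1.08 and in the neuronal class (1 of 8, against 1.15%) at 1.94, and without the richest cell of each library it was at 0.51 and 0.91.

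Other genes also differed between the libraries in smooth muscle and in Tcf21 Foxf1 cells. In smooth muscle the log2 ratio of KO over WT was -4.69 for Barx1, a gene of stomach mesenchyme, -1.84 for Wnt2, a gene of lung mesenchyme, -2.59 for the keratin gene Krt8, -1.78 for the matrix gene Lum and 1.29 for Synpo2. Of the smooth muscle markers used for sorting, Acta2 was at -0.50, Tagln at -0.35, Actg2 at -0.35 and Des at -1.14, while Myh11 was at 0.24. In Tcf21 Foxf1 cells the log2 ratio was -6.84 for Barx1, -3.63 for Lum and -3.24 for Postn, but 2.13 for Matn4 and 2.02 for Synpo2. Wnt2, a marker used to sort that class, was at -1.24 there. A different mixture of cells and a different level in the same cells cannot be told apart from these ratios, and their part in the member ratios was not tested.

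The study divides perivascular cells by Pdgfrb and Cspg4, the gene of NG2, and the WT mesenchyme was split by whether a cell held a UMI of both (DP, 379 cells), of Pdgfrb alone (PDGFRβ-S, 2065), of Cspg4 alone (NG2-S, 218) or of neither (DN, 2377). Igfbp7 was where DP stood apart. Its level was 5.33 CPM (4.56 to 6.19) in DN, 9.51 CPM (8.64 to 10.4) for PDGFRβ-S, 12.6 CPM (9.25 to 16.6) for NG2-S and 66.3 CPM (61.8 to 71.1) for DP, a log2 ratio of DP over the rest of 3.05 (2.90 to 3.20). Over the 9 alternatives this ratio was 2.70 to 3.69. Smooth muscle cells made up 40.1% of DP and 10.6% of PDGFRβ-S, and the cells of DP were deeper, with medians of 23016 and 16495 UMIs. Within smooth muscle alone, DP cells were at 149.5 CPM (139 to 161) and the other cells at 35.3 CPM (31.5 to 39.5), a log2 ratio of 2.08 (1.89 to 2.28). Outside smooth muscle the levels were 9.91 CPM (7.74 to 12.5) and 4.78 CPM (4.29 to 5.31), a ratio of 1.05 (0.66 to 1.42).

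The other members differed less between gates. Igf1r was highest in DP at 136 CPM (129 to 143) and lowest in DN at 93.3 CPM (90.0 to 96.7). Igfbp5 was at 435 CPM (423 to 447) in DP, near PDGFRβ-S at 422 CPM (416 to 428), and lower in DN at 317 CPM (310.5 to 323) and NG2-S at 268 CPM (252 to 285), but its log2 ratio of DP over the rest went from 0.22 to -0.39 with gates at 2 UMIs. Igfbp3 was highest in PDGFRβ-S at 56.8 CPM (54.7 to 59.0) and lowest in NG2-S at 14.4 CPM (10.8 to 18.7), where 58.7% of the cells were sclerotome, the mesenchyme class lowest in Igfbp3 in WT. Igfbp2 was lowest in DP at 63.2 CPM (58.8 to 67.9), and its log2 ratio of DP over the rest was -0.68 to -0.35 over the 9 alternatives. Igf1 was also lowest in DP, at 99.9 CPM (94.3 to 106), but in cells under 5% mitochondrial UMIs its ratio of DP over the rest was 0.38. Within smooth muscle, DP cells held Igf1 at 72.5 CPM and the other cells at 62.8 CPM, and outside smooth muscle at 118 and 117 CPM. The log2 ratio of DP over the other cells was -0.36 within and 0.43 outside smooth muscle for Igfbp5. For Igfbp2 it was 0.13 (-0.08 to 0.35) within and -0.40 outside. In all, 4 of the 10 members (Igf1r, Igfbp5, Igfbp7 and Igf2bp2) were highest in DP, and 40.0% of all genes with at least 100 UMIs were. With gates at 2 UMIs 2 members were, Igf1r and Igfbp7.

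**Figure D3:**
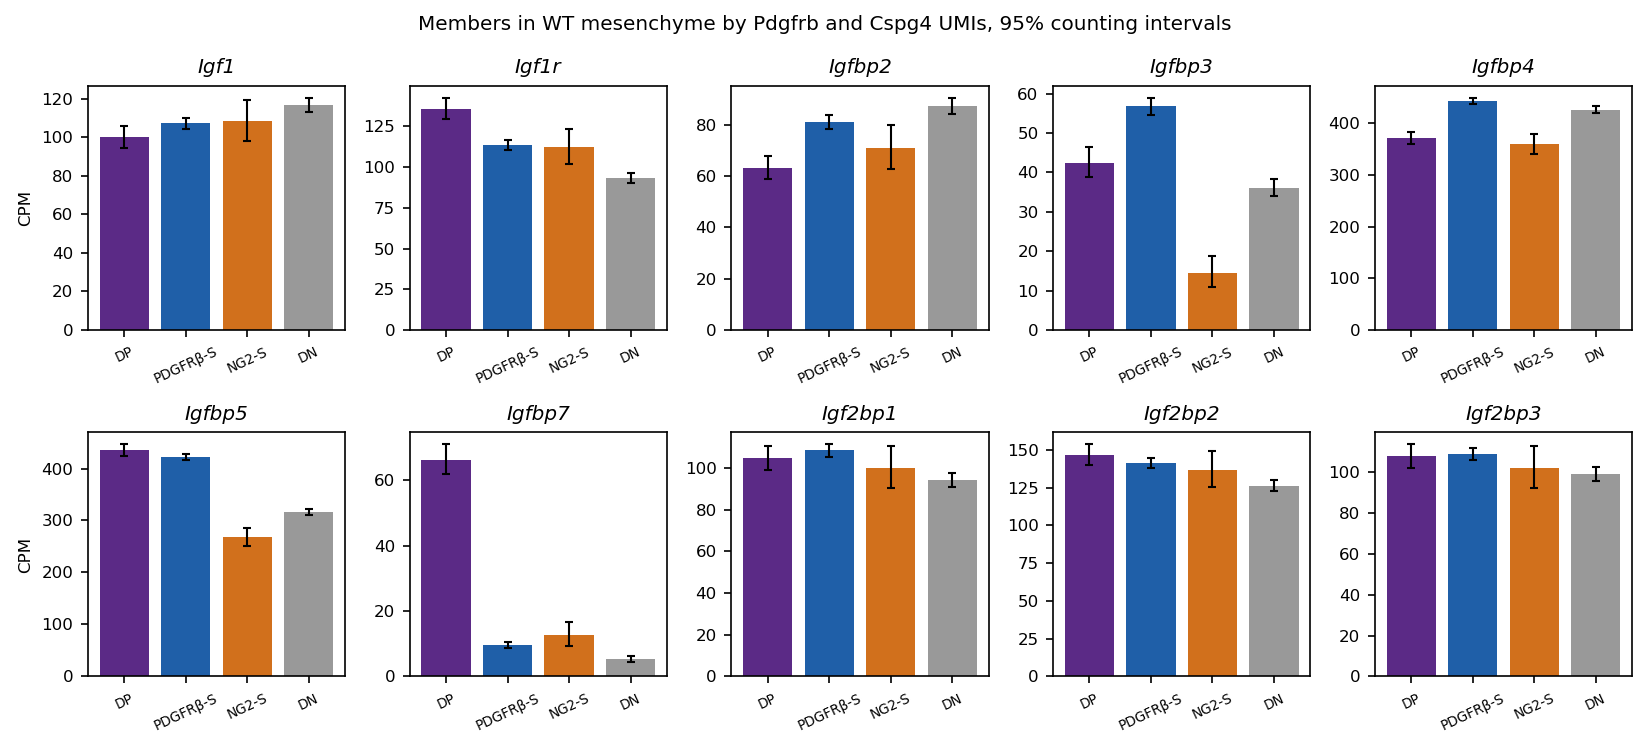
CPM of the 10 members in WT mesenchyme cells with UMIs of both Pdgfrb and Cspg4 (DP), of Pdgfrb alone (PDGFRβ-S), of Cspg4 alone (NG2-S) or of neither (DN), with 95% counting intervals. Igfbp7 stands at 66.3 CPM in DP and at 12.6 CPM or less elsewhere.

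Pdgfrb cannot serve as a gate in KO, and Cspg4 was used alone to compare genotypes, a split chosen after earlier values were seen. In mesenchyme with a Cspg4 UMI, 597 WT and 735 KO cells, Igfbp7 went from 53.3 CPM (49.8 to 57.0) in WT to 21.2 CPM (19.2 to 23.3) for the KO library, and its log2 ratio was -1.33 (-1.50 to -1.16). It was the only member past 2-fold there, 1 of 10, against 2.25% of all genes with at least 100 UMIs. In mesenchyme without a Cspg4 UMI, it went from 7.79 CPM (7.19 to 8.44) to 5.49 CPM (4.98 to 6.04), a ratio of -0.51 (-0.69 to -0.32). In smooth muscle with a Cspg4 UMI, 166 WT and 144 KO cells, it went from 149 CPM (138 to 159.8) to 66.0 CPM (59.5 to 73.0), a ratio of -1.17 (-1.36 to -0.99).

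The direction of the Igfbp7 ratio in mesenchyme depended on whether Pdgfrb positive cells were kept. WT cells with a Pdgfrb UMI held Igfbp7 at 21.2 CPM (20.1 to 22.5) and those without at 6.10 CPM (5.31 to 6.96). The 729 KO cells with residual Pdgfrb UMIs held it at 14.8 CPM (13.2 to 16.5) and the others at 7.09 CPM (6.51 to 7.72). With such cells left out of each library, the log2 ratio was 0.22, and with them left out of KO alone it was -1.12. Leaving them out of each library removed 2444 of 5039 WT but 729 of 5342 KO cells. The 0.22 thus compares unlike cells and cannot check the ratio. Smooth muscle made up 15.2% of the WT cells with Pdgfrb and 3.70% of those without, and in KO 15.8% and 5.16%. Within smooth muscle the ratio kept its sign, at -1.14 to -0.54 over the 13 alternatives.

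Smooth muscle cells were then sorted by how many of the 7 smooth muscle markers they showed, at least 4 being needed, again after earlier values were seen. Igfbp7 in WT was at 23.6 CPM (19.5 to 28.4) in 181 cells with 4 markers, 51.6 CPM (44.0 to 60.1) in 112 cells with 5, 107 CPM (95.8 to 119) in 101 cells with 6 and 169 CPM (153 to 186) in 73 cells with 7. In KO it was at 12.4 CPM (8.97 to 16.7) in 120 cells, 27.3 CPM (21.8 to 33.8) in 98 cells, 50.4 CPM (43.5 to 58.0) in 101 cells and 109.6 CPM (94.4 to 127) in 34 cells. KO was lower at each number of markers. Cells with 7 markers were also deeper, with a median of 28190 UMIs in WT and 44398 in KO. Igfbp2 was higher in KO at each number of markers, from 103 against 77.3 CPM at 4 markers to 109 against 31.4 CPM at 7. Igf1 was higher in KO at 4 to 6 markers, up to 210.4 CPM (195 to 227) against 61.0 CPM (52.7 to 70.2) at 5, but at 7 markers KO held 32.0 CPM (24.0 to 41.8) and WT 45.0 CPM (37.1 to 54.2). Igfbp5 behaved likewise, with 683 against 428 CPM at 6 markers and 225 against 237 CPM at 7, where intervals overlapped.

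**Figure D4:**
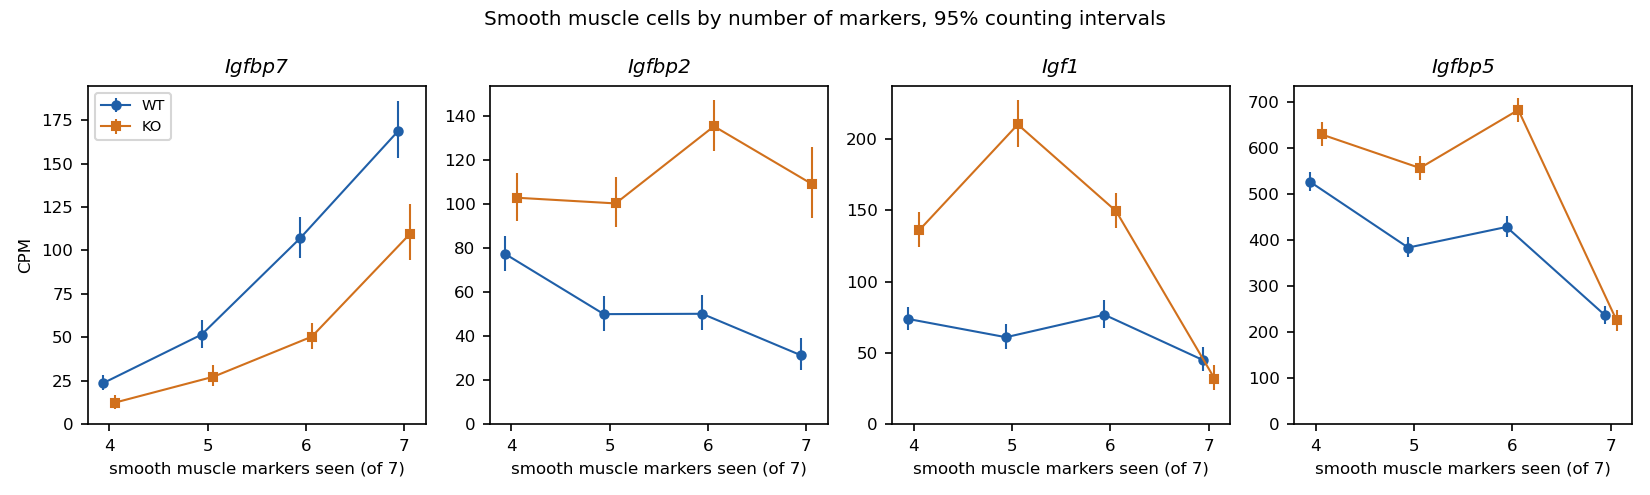
CPM of Igfbp7, Igfbp2, Igf1 and Igfbp5 in smooth muscle cells by the number of smooth muscle markers seen, with WT as blue circles, KO as orange squares and 95% counting intervals. Igfbp7 climbs with the number of markers in each library (23.6 to 169 CPM in WT, 12.4 to 109.6 CPM in KO), and the intervals of Igf1 and of Igfbp5 overlap between genotypes at 7 markers.

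Igfbp3 differed with the mitochondrial share of the cell, a split made after its values were seen. In WT mesenchyme it stood at 18.7 CPM (17.1 to 20.4) in 1374 cells with under 5% mitochondrial UMIs, at 57.2 CPM (55.4 to 59.0) in 3665 cells with 5 to 10%, and at 132 CPM (121 to 144) in 499 cells at or above 10%, which were left out elsewhere. In KO the values were 24.6 CPM (22.5 to 26.7), 39.2 CPM (37.8 to 40.7) and 55.3 CPM (48.9 to 62.4). The ratio between genotypes therefore turned, with Igfbp3 higher in KO by a log2 ratio of 0.39 in cells under 5% and lower in the other bins. Igfbp5 went from 329 to 596 CPM in WT and from 355 to 662 CPM in KO over the same bins, and Igf1r from 86.6 to 151 CPM and from 88.3 to 143 CPM. Igfbp4 stayed between 425 and 459 CPM in WT and between 383 and 435 CPM in KO. The median depth of these bins was 15601.5, 12988 and 5749 UMIs in WT, and the part of depth in these levels was not tested.

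**Figure D5:**
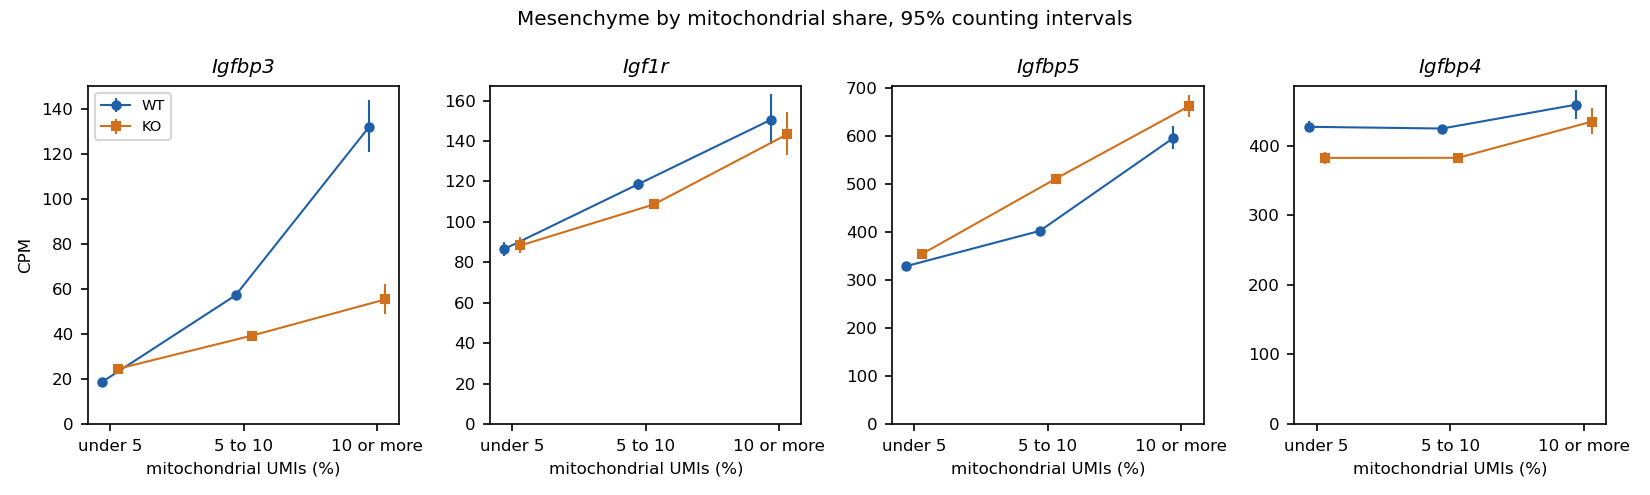
CPM of Igfbp3, Igf1r, Igfbp5 and Igfbp4 in mesenchyme cells by their percent of mitochondrial UMIs, with WT as blue circles, KO as orange squares and 95% counting intervals. Igfbp3 goes from 18.7 to 132 CPM in WT and from 24.6 to 55.3 CPM in KO, and the lines cross between the bins under 5% and 5 to 10%.

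Most mesenchyme cells carried at least 1 binding protein mRNA. With each cell thinned to 2000 UMIs, 75.0% of WT and 75.6% of KO mesenchyme cells held a UMI of at least 1 of the 5 binding protein genes, and 31.0% and 33.1% held at least 2 of them. In erythroid cells, which should lack these mRNAs, 9.30% and 9.38% held any. Any Igf2bp mRNA was seen in 46.2% and 49.2% of mesenchyme cells. Igf1 was seen in 15.0% and 17.5%, Igf1r in 18.4% and 16.6%, and ligand and receptor together in 2.92% and 2.47%, where independent detection would give 2.75% and 2.89%. The share of cells with both members of a pair was divided by the product of the single shares. Over all 45 pairs this quotient was 0.37 to 1.39 in WT and 0.53 to 1.45 in KO. It was 0.37 and 0.84 for Igfbp2 with Igfbp7, where Igfbp7 was seen in only 2.06% and 1.40% of cells. Over the 36 pairs without Igfbp7 it was 0.93 to 1.39 in WT and 0.85 to 1.35 in KO. It was 1.26 and 1.29 for Igf1 with Igfbp5 and 1.39 and 1.21 for Igfbp2 with Igfbp3. Cells of 1 library are not replicates, and these shares are descriptions.

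Of the other genes of the pathway, 41 in 6 lists, 37 had at least 50 UMIs in mesenchyme, and 23 were higher and 14 lower in KO, with a median log2 ratio of 0.08. Over all mesenchyme genes with at least 10 UMIs, 46.4% were lower in KO and the median was 0.02. Past 2-fold were 1 higher and 3 lower of the 37, against 8.15% of genes with at least 10 UMIs and 3.17% of those with at least 100. Pappa2, a protease that cuts IGF binding proteins, stood at 1.33 CPM for WT and 2.83 CPM for KO, a log2 ratio of 1.09 (0.78 to 1.41). Its relative Pappa, which cuts Igfbp4, stood at 5.30 and 9.13 CPM, a ratio of 0.78 (0.62 to 0.95). The lower ones were Igfbpl1, an IGF binding protein-like gene, at -1.08 (-1.82 to -0.38) on 54 and 26 UMIs, Lin28a, an RNA-binding regulator of let-7, at -1.61 (-2.44 to -0.84) on 57 and 19 UMIs, and Cd44, a hyaluronan receptor, at -1.01 (-1.26 to -0.76). Of the 6 proteases and their inhibitors 5 were higher in KO with a median of 0.53, of the 7 adaptors 6 with a median of 0.15, and of the 11 intracellular effectors 8 with a median of 0.12. Of the 8 partners and reported client mRNAs of the Igf2bp proteins, 2 were higher and 6 lower with a median of -0.12. The 3 measured ligand and receptor genes outside the members were 2 higher and 1 lower, and the 2 measured other binding protein genes were both lower. The ligand gene Igf2 had 4547 and 4890 UMIs in barcodes with at least 2000 UMIs, but another annotated gene on its strand, Gm49394, covers nearly the whole of it, so its counts are uncertain.

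The genes whose WT pattern over 13 classes was most like that of a member, among 11051 genes with at least 500 UMIs, had Pearson correlations of 0.85 to 0.99 on log2(CPM + 1). For Igfbp7 these were Tagln (0.92), Angpt2 (0.91) and Cnn1 (0.89), of which Tagln and Cnn1 are among the markers that define the smooth muscle class. For Igf1 they were Igfbp4 (0.94), Nfkbil1 (0.94) and Kif16b (0.93), for Igf1r Zfp280d (0.98), Gpatch1 (0.98) and Zfp322a (0.97), and for Igfbp2 Trim45 (0.94) and Tmem47 (0.94). For Igfbp3 they were Stc1 (0.89), Phlpp1 (0.87) and Foxo1 (0.85), for Igfbp4 Fam32a (0.97), Ppcs (0.96) and Zfp820 (0.96), and for Igfbp5 Zfp955a (0.90), Rccd1 (0.90) and Sdsl (0.89). The Igf2bp genes were nearest to Tbca, Mrps31 and Snrpd3 for Igf2bp1, Nf1, Ankrd26 and Rcbtb1 for Igf2bp2, and Rrp36, Ino80e and Npm3 for Igf2bp3, each at 0.99. The classes share a library and its free RNA. Without erythroid cells the correlations were 0.78 to 0.98 in WT, and over the 11 such classes of KO they were 0.16 to 0.95, lowest for Kif16b with Igf1. For Igf1 with Igfbp4 and with Nfkbil1 they were 0.37 and 0.69 there. The genes were picked as the most alike in WT, so high WT values follow from the choice.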

How the data were processed

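Droplet 3′ single-cell RNA of 1 WT and 1 KO AGM library was analysed. The UMI counts were deposited by the authors as unfiltered matrices, made with Cell Ranger 3.1.0 on mm10 per the submitters' processing notes. Intronic or multi-mapping settings were not given in the sources used here. Total UMIs were 179743201 (WT) and 174597654 (KO), and 954 and 992 barcodes were removed for mitochondrial UMIs. Cells were sorted by marker genes, those passing several classes were set aside as mixed, and no doublet caller was run. UMIs were summed per class and given as CPM. With 1 library per genotype no test was possible, and a log2 ratio of at least 1 in size was used as the call, on genes with at least 10 UMIs, or 100 within classes. The genes named outside the members are the pathway genes past 2-fold, with Pappa and Igf2 added after their values were seen, and the 3 genes most alike in WT per member, of which 1 is not reported here. The members, lists and splits were chosen with earlier results of these data known. The code was tested on simulated data. Python 3.11.15, numpy 2.4.6, scipy 1.17.1, pandas 2.3.3, matplotlib 3.10.9 and, for TMM factors, edgeR 4.0.16 in R 4.3.3 were used. Other settings were tried, 16 of them chosen at the start and 1 after seeing the data.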

Additional observations from a re-analysis of the deposited data

Results flagged for a closer look

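Igfbp7 was found outside the cells of the KO library, in data the comparisons do not use. Barcodes with at most 100 UMIs, taken here as free RNA, gave it at 44.5 CPM (36.4 to 53.9) in KO. That came from 105 UMIs in 103 barcodes with at most 2 in any of them. In WT free RNA it was at 5.23 CPM (2.79 to 8.95), from 13 UMIs. KO cells held 7.40 CPM and KO barcodes between these limits 4.55 CPM. In the same free RNA Dnase1l3 had 222 UMIs in KO and 3 in WT, and the immunoglobulin gene Igha 163 and 2, genes named after their values were seen. The KO UMIs of Igha lay in 50 barcodes with up to 10 in 1 of them. KO cells held Dnase1l3 at 0.127 CPM and Igha at 0 CPM. The cause was not tested, nor was whether this profile matches the free RNA that reaches cells, as the subtraction takes it to. With free RNA subtracted, the log2 ratio of KO over WT in mesenchyme was -0.87, in place of -0.82.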

How the results depend on the processing

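Of 649 member values recomputed under alternatives, 445 moved by less than their interval and 204 by more, and none past 2-fold was counted as reversed. Without cells passing the mesenchyme gate, however, some calls by class fell to near 0 with the other sign. Igf1 in the neuronal class went from 1.94 to -0.04, and Igfbp3 in coelomic cells from -1.10 to 0.04. The number of members past 2-fold in all cells went from 0 to 1 (Igfbp7, -1.08) with Pdgfrb positive KO cells left out. In mesenchyme it went from 0 to 1 (Igfbp7 in each case) without cells over 60000 UMIs, and with Pdgfrb positive KO cells left out (-1.12). With gates at 2 UMIs, 2 members in place of 4 were highest in DP. Members past 2-fold in the fixed mix stayed at 0 in all 15 alternatives. TMM and median-of-ratios scaling shifted all cells by 0.06 and 0.08 on the log2 scale. No paired analysis was possible because each genotype has 1 library. Depth limits the ratios of Igfbp7 in coelomic cells, which rest on 25 and 41 UMIs.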
